A study of Mus musculus with 6 samples.

Results

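Transcripts of 10 genes typical of adipocytes were followed in hearts of mice with a knockout of Cenpf and of wild-type mice. They are Car3, Retn, Scd1, Plin1, Adipoq, Cfd, Fabp4, Cidec, Lep and Pck1. A gene entered through a probe annotated with its symbol and no other, and 9 of the 10 had such a probe, 1 each, among the 19938 genes so named (the probe of highest mean would have stood for a gene with several). Cfd is not analysed here. The study compared hearts of 3 cenpf knock-out mice and of 3 wild-type mice, all 12 months old and untreated. Each heart was read on its own Affymetrix mouse gene array. The Cenpf protein binds kinetochores and microtubules, and the question named is how knockout hearts compare with wild-type ones. The sources used here do not give the Cre or promoter behind the knockout, the deleted part of Cenpf, the strain or the part of the heart taken.

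White adipocytes store triglyceride in 1 large droplet. The droplet is coated by perilipin 1, encoded by Plin1, and grown by fusion through the protein encoded by Cidec. The same cells secrete hormones, among them adiponectin (Adipoq), leptin (Lep) and, in the mouse, resistin (Retn). They make monounsaturated fatty acids with the desaturase Scd1, carry fatty acids on Fabp4, supply glycerol for triglyceride through the carboxykinase Pck1 and hold much of the carbonic anhydrase Car3. The heart has adipocytes in its outer layer and in attached fat. Several of these genes are also used elsewhere, Fabp4 in capillary endothelium, Car3 in slow skeletal muscle and liver, Scd1 and Pck1 in liver. In these heart samples, fewer adipocytes, less RNA of a gene per adipocyte, less attached fat in the sample and RNA from other cells cannot be told apart.

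Values are the deposited log2 signals, where a difference of 1 is a doubling. A background level of 6.35 was set from olfactory and vomeronasal receptor genes, taken as silent in heart. Knockout minus wild-type differences were tested with limma across all 21789 probes of a single named gene, two-sided, and a probe was called at a Benjamini-Hochberg adjusted p under 0.05. Cenpf itself, checked first, read 6.35, 6.10 and 6.67 in knockout hearts, against 8.75, 8.54 and 8.04 in wild-type hearts, a difference of -2.07 ± 0.21 (SE, limma, adjusted p = 0.0286, and an exact two-sided permutation p = 0.1, the smallest that 3 against 3 allows). Whether its probe lies in the deleted part is not known. Leaving out wild-type replicate 3 kept its call, and leaving out any other heart ended it (adjusted p between 0.0689 and 0.198). One heart weighed on all calls, with 6 probes called from all hearts and 293 once wild-type replicate 3 was left out. Apart from Cenpf, each gene named below as passing without wild-type replicate 3 passed under no other fit. The labels call the hearts biological replicates, so the spread takes in differences between mice, and precision is limited by having 3 arrays a group.

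All 9 genes had a lower mean in knockout than in wild-type hearts, and none of these differences was called. At a limma adjusted p under 0.05 the count was 0 of 9, where 0.0275% of all probes were called. At an unadjusted p under 0.05 the genes Car3, Retn, Scd1 and Plin1 were lower, 4 of 9, where 5.24% of all probes were lower by that rule. The median difference of the 9 was -0.33, against -0.0082 over all probes. Without wild-type replicate 3 the count called was 2 of 9, Car3 and Adipoq, both lower, where 1.34% of all probes were called and 0.569% were called lower. Among the 9, Car3, Plin1 and Lep had groups that did not overlap, where 7.47% of all probes lay lower without overlap. The 9 genes were chosen with earlier results of these data known. Their counts and median beside all probes, here and below, are therefore a description and no test.

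Car3, a carbonic anhydrase of the cytosol that is abundant in fat cells, differed by more than the other 8 genes. It read 7.72, 7.46 and 6.95 in knockout hearts, against 10.92, 9.66 and 8.42 in wild-type hearts. Every knockout heart lay below every wild-type heart, and the wild-type hearts themselves spread widely. The means were 7.38 ± 0.39 in knockout and 9.67 ± 1.25 in wild-type hearts (SD, n = 3 each). The difference of -2.29 ± 0.53 (SE) is 4.89-fold, with a 95% interval from -3.51 to -1.07 on the log2 scale. It did not pass across all probes (limma, adjusted p = 0.368), although only 0.0184% of all probes had a difference as low. Leaving out wild-type replicate 3 gave -2.91, which passed (adjusted p = 0.0232). Leaving out wild-type replicate 1 gave -1.66 (adjusted p = 0.390).

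**Figure D1:**
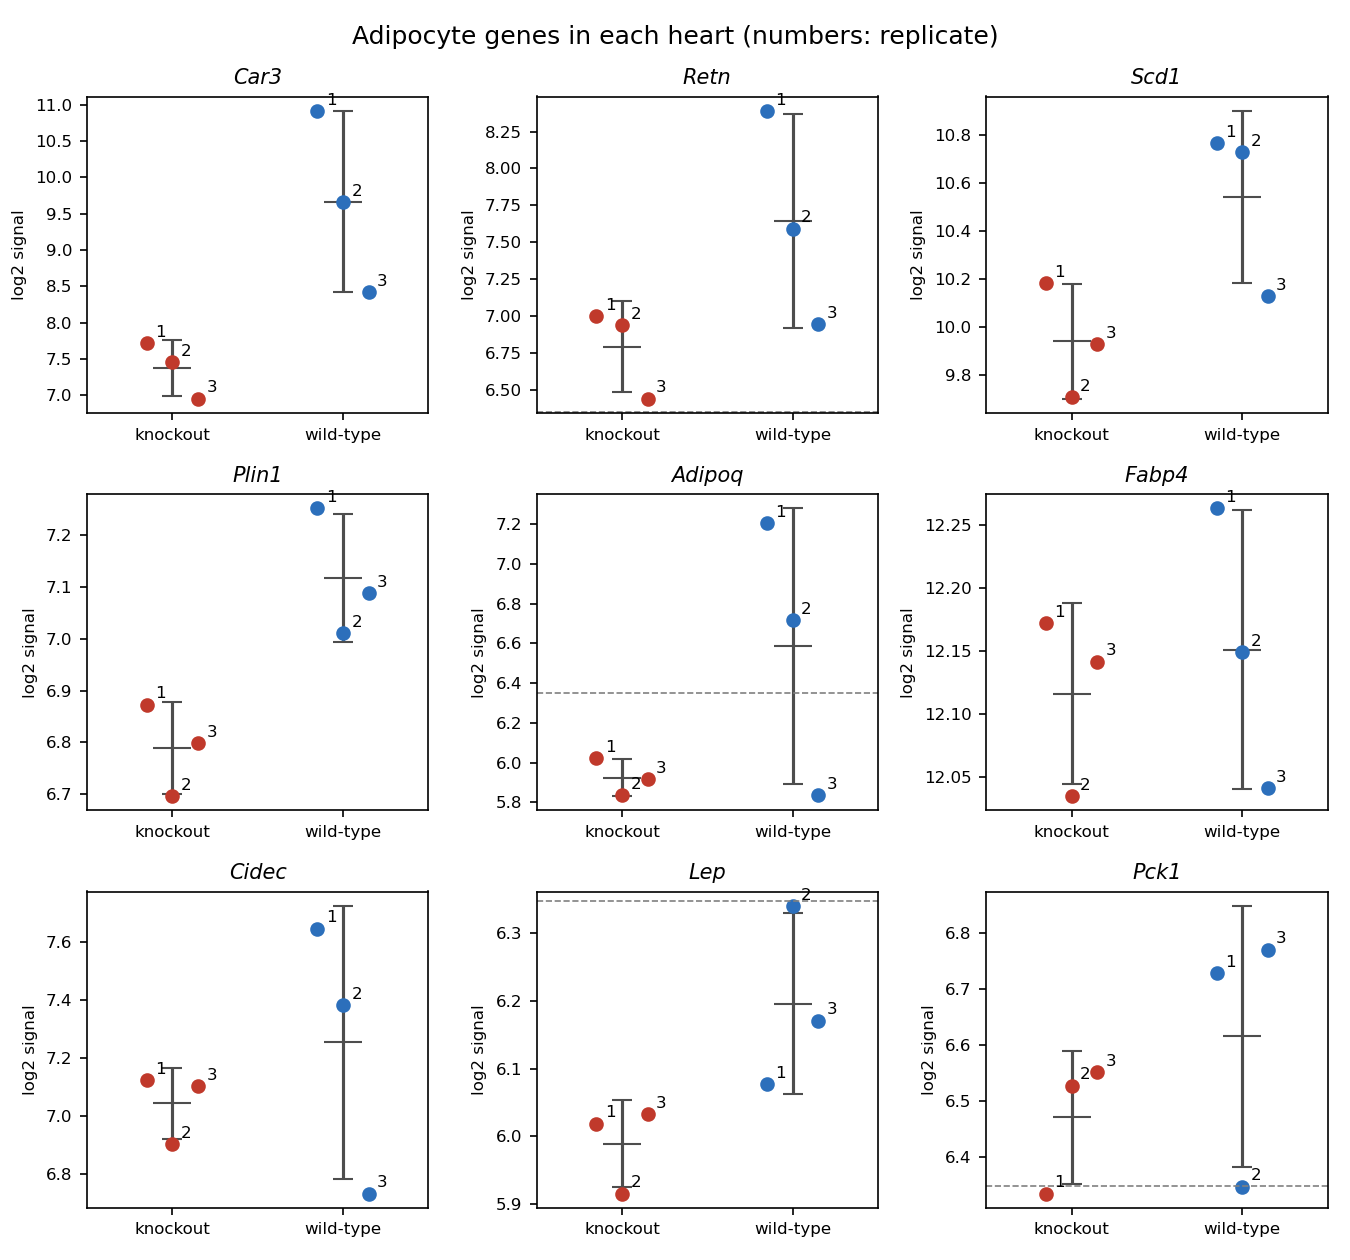
Log2 signal of the 9 genes (vertical axes, each panel on its own range that does not start at 0) in 3 knockout and 3 wild-type hearts. Points are hearts numbered by replicate, bars are mean ± SD, and the dashed line is the background level of 6.35 where it falls in the panel. In Car3, Retn, Adipoq and Cidec wild-type replicate 1 is highest, wild-type replicate 2 next and wild-type replicate 3 lowest of its group.

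The hormone genes came next. Retn, which encodes resistin, read 7.00, 6.94 and 6.44 in knockout hearts, against 8.39, 7.59 and 6.94 in wild-type hearts. Wild-type replicate 3 lay within the knockout values, and the other wild-type hearts lay above them. The difference was -0.85 ± 0.33 (SE, limma, adjusted p = 0.473). It was -1.20 with wild-type replicate 3 left out (adjusted p = 0.0977) and -0.48 with wild-type replicate 1 left out.

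Adipoq, which encodes adiponectin, a hormone made almost only by adipocytes, read 6.02, 5.84 and 5.91 in knockout hearts, against 7.21, 6.72 and 5.84 in wild-type hearts. Thus 2 of 6 hearts lay above the background level, wild-type replicates 1 and 2, and wild-type replicate 3 read like the knockout hearts. The fitted difference was -0.66 ± 0.29 (SE, limma, adjusted p = 0.512). As all knockout values and wild-type replicate 3 were below background, no fold is given. With values below background set to that level, the difference of means was -0.41. The difference was -1.04, and passed, once wild-type replicate 3 was left out (adjusted p = 0.0388). With wild-type replicate 1 left out instead it was -0.35.

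Lep, the leptin gene, read 6.02, 5.92 and 6.03 in knockout hearts, against 6.08, 6.34 and 6.17 in wild-type hearts. All 6 values lay below the background level, so no fold is given, although the groups did not overlap. The fitted difference was -0.21 ± 0.11 (SE, limma, adjusted p = 0.548). Leptin and adiponectin are among the genes most restricted to adipocytes. All 3 knockout hearts lay below background for 2 of 9 genes, Adipoq and Lep, against 26.2% of all probes. All 6 hearts did so for Lep, against 24.3% of all probes, and wild-type replicate 3 did so for Adipoq too.

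Among the lipid droplet proteins, Plin1, the coat protein that gates lipolysis, read 6.87, 6.70 and 6.80 in knockout hearts, against 7.25, 7.01 and 7.09 in wild-type hearts. All values were above background, in a narrow range, and every knockout heart lay below every wild-type heart. The difference was -0.33 ± 0.11 (SE, limma, adjusted p = 0.439), and it stayed between -0.38 and -0.26 whichever heart was left out. Plin1 was the gene among the 4 with an unadjusted p under 0.05 for which wild-type replicate 3 was not the lowest wild-type heart.

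Cidec, whose protein fuses droplets, read 7.12, 6.90 and 7.10 in knockout hearts, against 7.65, 7.38 and 6.73 in wild-type hearts. Wild-type replicate 3 was the lowest of all 6 hearts, while the other wild-type hearts were the highest. The difference of -0.21 ± 0.21 (SE, adjusted p = 0.763) became -0.47 when wild-type replicate 3 was left out, and -0.014 when wild-type replicate 1 was.

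Of the lipid enzymes and carriers, Scd1, the desaturase, read 10.18, 9.71 and 9.93 in knockout hearts, against 10.77, 10.73 and 10.13 in wild-type hearts. Wild-type replicate 3 lay just below knockout replicate 1, so the groups overlapped. The difference was -0.60 ± 0.19 (SE, adjusted p = 0.434), or -0.81 without wild-type replicate 3 (adjusted p = 0.0639).

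Fabp4, the fatty acid carrier of adipocytes and capillary endothelium, read 12.17, 12.03 and 12.14 in knockout hearts, against 12.26, 12.15 and 12.04 in wild-type hearts. The groups overlapped, and the difference was -0.035 ± 0.10 (SE, adjusted p = 0.932), with a 95% interval from -0.27 to 0.20. Its sign turned with wild-type replicate 1 left out (0.021) and with knockout replicate 2 left out (0.0056). Pck1, the carboxykinase of glycerol and glucose synthesis, read 6.33, 6.53 and 6.55 in knockout hearts, against 6.73, 6.35 and 6.77 in wild-type hearts. Knockout replicate 1 and wild-type replicate 2 lay just below the background level and the other hearts a little above it, with groups that overlapped. The difference was -0.14 ± 0.14 (SE, adjusted p = 0.745), or -0.28 with wild-type replicate 2 left out and -0.067 with wild-type replicate 3 left out.

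**Figure D2:**
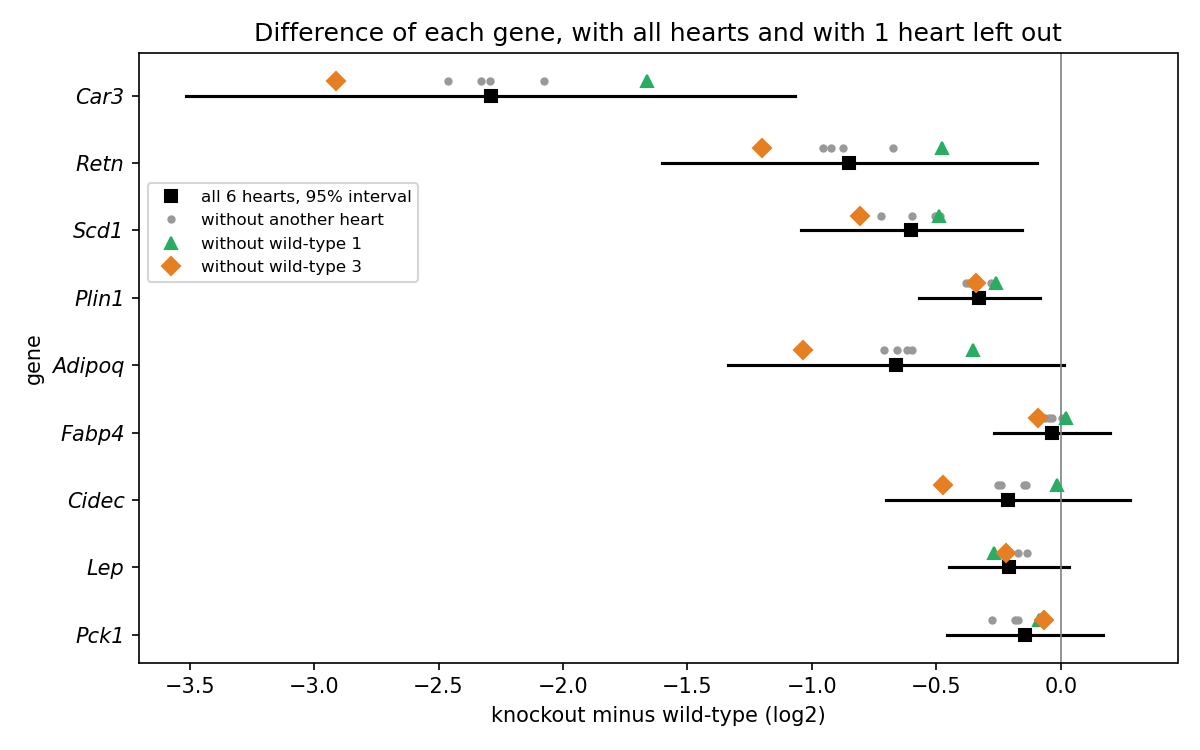
Knockout minus wild-type difference of each gene (horizontal axis, log2). Black squares with lines are the fit to all 6 hearts with its 95% interval, and the smaller symbols above them are the fits with 1 heart left out. For Car3, Retn, Adipoq and Cidec the value without wild-type replicate 3 is the lowest and that without wild-type replicate 1 the highest.

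The hearts were then compared with each gene centred on its own mean over the 6 hearts. The mean deviation of the 9 genes was -0.18, -0.34 and -0.36 in knockout replicates 1, 2 and 3, against 0.68, 0.31 and -0.11 in wild-type replicates 1, 2 and 3. The gap between wild-type hearts was therefore wider than that between wild-type replicate 3 and the knockout hearts. Wild-type replicate 1 was the highest of the 6 hearts for 7 of the 9 genes, all but Lep and Pck1, where it was highest for 17.4% of all probes. Wild-type replicates 1 and 2 both lay above all knockout hearts for 7 of 9 genes, all but Fabp4 and Pck1, against 18.3% of all probes. For Retn, Scd1, Adipoq and Cidec wild-type replicate 3 did not, a pattern of 4 of 9 genes and of 10.9% of all probes.

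For these genes the wild-type hearts varied more than the knockout hearts. The SD was larger among wild-type hearts for 9 of 9 genes, against 52.7% of all probes. For Adipoq it was 0.093 in knockout and 0.69 in wild-type hearts, and for Cidec 0.12 in knockout and 0.47 in wild-type hearts. All knockout values of Adipoq and all 6 values of Lep lay below background, where the SD may not show variation between hearts. Lowest values fell most often on knockout replicate 2, the lowest of all hearts for 5 of 9 genes, against 17.7% of all probes. Knockout replicate 3 was lowest for Car3 and Retn, against 15.0% of all probes. Knockout replicate 1 was lowest for Pck1 and wild-type replicate 3 for Cidec. The 9 genes share arrays and tissue, so they are not independent, and these counts carry no test.

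**Figure D3:**
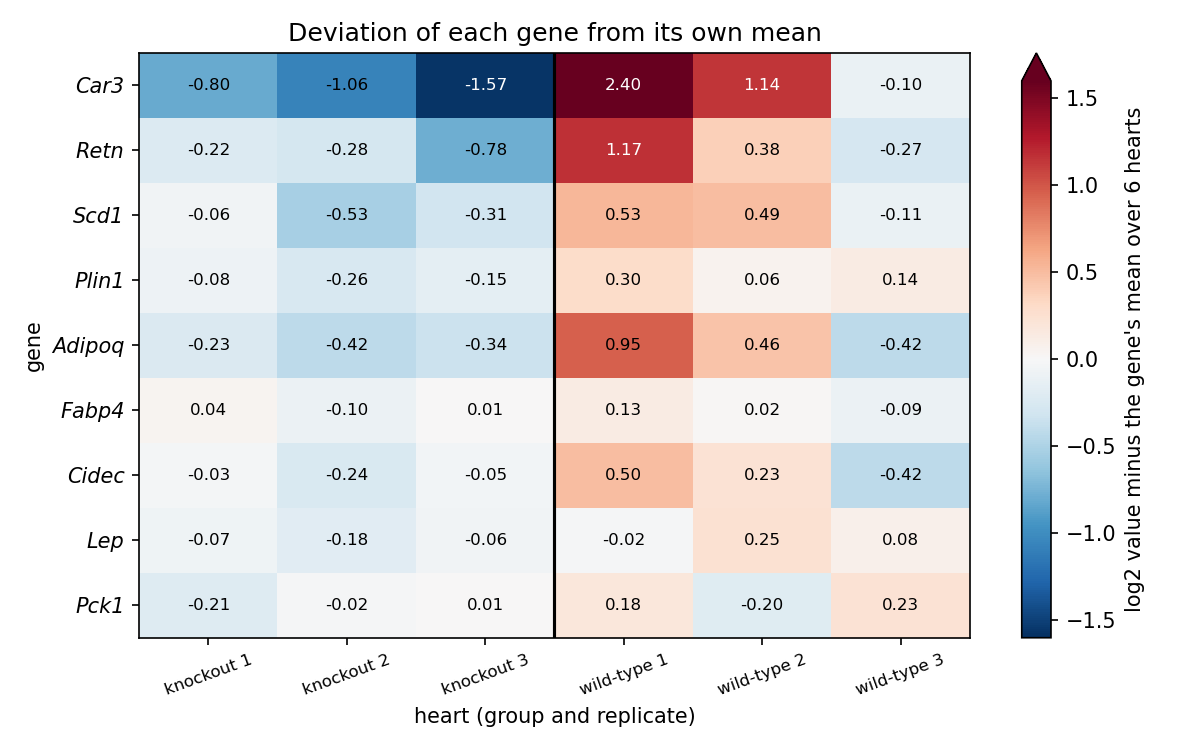
Each cell is a gene's log2 value in a heart (columns) minus that gene's mean over all 6 hearts, coloured from blue (lower) to red (higher), with the colour scale ending at 1.6. Wild-type replicate 1 is the reddest column, up to 2.40 for Car3. Wild-type replicate 3 lies within the range of the knockout columns for Retn, Scd1 and Adipoq and below that range for Cidec, at -0.42.

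Upstream sequence was looked up for these genes because several followed the same hearts. RefSeq promoters of build GRCm38.p6 were matched for 6 of the 9, namely Retn, Plin1, Adipoq, Cidec, Lep and Pck1, with 7 start sites. The 100 bases before the start site are shown, 5′ to 3′ on the gene's strand, for the 3 hormone genes and the droplet coat gene, with CCAAT matches (either strand) in capitals for Adipoq and TTNNGCAA matches, a loose form of the C/EBP motif, in capitals for Plin1 and Lep.
Adipoq (chr16:23146436-23146535, plus strand): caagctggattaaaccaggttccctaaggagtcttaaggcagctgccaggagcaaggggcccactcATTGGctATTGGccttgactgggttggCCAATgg
Retn (chr8:3655670-3655769, plus strand): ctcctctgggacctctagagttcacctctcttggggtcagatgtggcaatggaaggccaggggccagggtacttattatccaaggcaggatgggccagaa
Plin1 (chr7:79732777-79732876, minus strand): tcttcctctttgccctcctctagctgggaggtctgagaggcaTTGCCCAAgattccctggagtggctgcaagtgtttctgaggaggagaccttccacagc
Lep (chr6:29060121-29060220, plus strand): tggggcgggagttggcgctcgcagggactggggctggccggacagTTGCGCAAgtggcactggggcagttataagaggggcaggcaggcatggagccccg

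Over 250 bases before the start site and on both strands, TTNNGCAA was found for 3 of the 6 genes, Cidec, Lep and Plin1, and in 9.56% of all 32851 promoters. CCAAT was found for Adipoq alone, 3 times, and in 33.8% of all promoters. GGGCGG was found for Lep and Pck1 and in 32.7% of all promoters. Another 5 motifs were found for 0 of the 6. They are TATAAA (12.4% of all promoters), CACGTG (6.02%), TCACNCCAC (1.05%), AGGTCA (14.0%) and the DR1 element bound by PPAR receptors (0.034%), which is AGGTCA repeated after 1 free base and so overlaps the single site. Retn held none of the 8 motifs. The order of wild-type hearts seen in Retn and Adipoq was that of 6 of the 9 genes and of 17.8% of all probes. Any part of the motifs in the values was not tested.

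Other genes of adipocytes went both ways. Of 27 measured, 12 were higher and 15 lower in knockout hearts, 0 were called, and the median difference was -0.038. At an unadjusted p under 0.05 there were 2 higher and 2 lower, where 9.9% of all probes passed that rule (4.66% higher and 5.24% lower). Groups did not overlap for 1 higher gene, Aqp7, and for 4 lower ones, Mrap, Gpd1, Pnpla3 and Cyp2e1, the last below background. Over all probes the shares without overlap were 7.33% higher and 7.47% lower. Aqp7, the glycerol channel, read 10.91, 11.10 and 11.00 in knockout hearts, against 10.12, 10.41 and 10.83 in wild-type hearts, a difference of 0.55 (adjusted p = 0.426), or 0.74 without wild-type replicate 3 (adjusted p = 0.0492). Rbp4, the plasma retinol carrier, read 7.48, 6.78 and 7.01 in knockout hearts, against 7.88, 7.81 and 7.26 in wild-type hearts. Its difference of -0.56 (adjusted p = 0.473) came with a low wild-type replicate 3, as for Scd1. The lipase relative Pnpla3 differed by -0.24 (adjusted p = 0.480) and the retinol saturase Retsat by 0.42 (adjusted p = 0.494). In wild-type hearts Aqp7 and Retsat averaged 10.45 and 9.90, against 6.59 for Adipoq and 6.20 for Lep. Of the 27, 24 had a mean above background in at least 1 group. Which cells of the heart gave the signal of these genes was not tested.

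The regulators of adipocyte genes showed differences near 0. Pparg, the receptor that drives fat cell formation, averaged 9.23 ± 0.11 in knockout and 9.17 ± 0.22 in wild-type hearts (SD, n = 3 each), and Cebpa, a transcription factor of the same process, averaged 7.50 ± 0.30 in knockout and 7.56 ± 0.15 in wild-type hearts. The 95% intervals of these differences ran from -0.24 to 0.36 and from -0.42 to 0.31. The droplet protein gene Plin4 differed by 0.11, the hormone-sensitive lipase gene Lipe by 0.10 and the angiotensinogen gene Agt by -0.044, with adjusted p from 0.782 to 0.935. All 5 lay above background in every heart, and which cells gave their signal was not tested.

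Genes of fatty acid and triglyceride synthesis split. Of 18 measured, 10 were higher and 8 lower in knockout hearts, 0 were called, and the median was 0.052. Agpat2, an acyltransferase of triglyceride synthesis, averaged 11.00 ± 0.052 in knockout and 10.41 ± 0.18 in wild-type hearts (SD, n = 3 each), without overlap and with a difference of 0.59 (adjusted p = 0.259). The malic enzyme gene Me1 differed by 0.55 (adjusted p = 0.408), the acyltransferase gene Gpam by 0.63 (adjusted p = 0.455) and the carboxylase gene Acacb by 0.48 (adjusted p = 0.486). The signs of these 4 were opposite to that of Scd1, while the 8 lower genes shared its sign. Of those 8, Fasn, Elovl6 and Acly, named after their values were seen, differed by -0.32, -0.25 and -0.19 (adjusted p from 0.565 to 0.743). Without wild-type replicate 3, Agpat2, Me1 and Gpam passed with 0.70, 0.76 and 0.89 (adjusted p = 0.0307, 0.0232 and 0.0293). None of them passed under any other fit, where the adjusted p reached 0.695, 0.809 and 0.818.

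Close relatives of the 9 genes gave a second view of the same hearts. Scd2, a desaturase of the same family as Scd1, read 9.78, 9.57 and 9.61 in knockout hearts, against 11.02, 10.93 and 9.53 in wild-type hearts. Wild-type replicates 1 and 2 stood more than 1 unit above the other 4 hearts. The difference was -0.84 ± 0.35 (SE, adjusted p = 0.498), and without wild-type replicate 3 it was -1.32 (adjusted p = 0.00561). Scd4 had the opposite sign (0.66), at 6.94 ± 0.20 in knockout and 6.28 ± 0.27 in wild-type hearts (SD, n = 3 each, adjusted p = 0.368), near the background level. Desaturase genes of this family are alike in sequence, so signal of a probe could be shared between them.

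Fabp5, a fatty acid carrier of adipocytes, skin and macrophages, read 9.72, 9.40 and 9.47 in knockout hearts, against 10.26, 10.15 and 9.64 in wild-type hearts. Its difference was -0.49 (adjusted p = 0.457), and its other probe gave -0.50. Fabp3, the carrier of heart muscle, averaged 13.62 ± 0.022 in knockout and 13.55 ± 0.066 in wild-type hearts (SD, n = 3 each), and Pck2, the mitochondrial relative of Pck1, 7.93 ± 0.10 in knockout and 7.93 ± 0.071 in wild-type hearts. Over the 18 relatives measured, 5 were higher and 13 lower, with 0 called and a median of -0.13.

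Of 13 lipid droplet and lipolysis genes used by many cells 8 were higher, 0 were called, and the median was 0.082. Mgll, the monoglyceride lipase gene, differed by 0.47 (adjusted p = 0.455) and Plin3, a droplet coat gene of most cells, by 0.49 (adjusted p = 0.464). Both passed without wild-type replicate 3, with 0.66 and 0.71 (adjusted p = 0.0370 and 0.0355). Receptors were measured as well, in a list that holds leptin and adiponectin receptors, Tlr4, an innate immune receptor that also binds resistin, and the insulin receptor. Of these 6 genes 6 had higher means in knockout hearts, with 0 called and a median of 0.21. The leptin receptor gene Lepr differed by 0.21, the adiponectin receptor genes Adipor1 and Adipor2 by 0.011 and 0.22, the adiponectin-binding cadherin gene Cdh13 by 0.033, Tlr4 by 0.23 and the insulin receptor gene Insr by 0.28, with adjusted p from 0.589 to 0.981. Adipor1 and Cdh13 changed sign with some hearts left out. Leaving out wild-type replicate 3 gave 0.050 for Lepr, and leaving out wild-type replicate 1 gave 0.32. For Insr the lowest such value was 0.15 (knockout replicate 2 left out) and the highest 0.43 (knockout replicate 1 left out). Tlr4 is named after its values were seen, to complete the list.

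**Figure D4:**
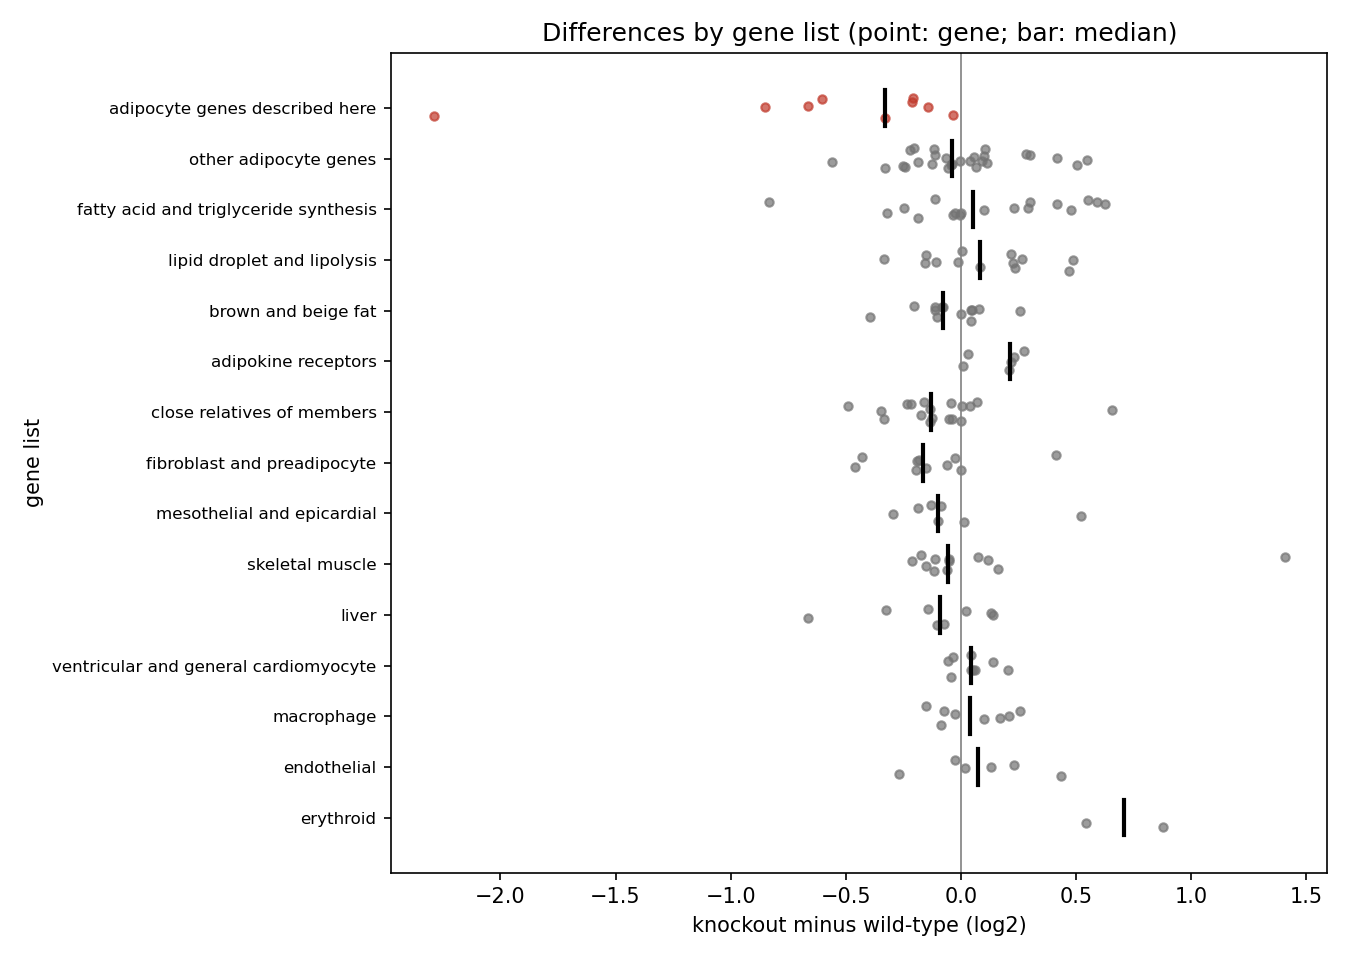
Knockout minus wild-type difference (horizontal axis, log2) of each measured gene, by gene list, with the list's median as a black bar. All 9 adipocyte genes described here, in red, lie below 0, from -2.29 to -0.035, while the other 14 lists have medians from -0.17 to 0.71.

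Markers of other cells that a heart sample can hold were set beside these values. Brown fat had 13 genes measured with a median of -0.077 and 0 called, among them Kcnk3 at 0.26 and Cox8b at -0.11. Its defining gene Ucp1 lay below background in 5 of 6 hearts, at 5.78, 5.84 and 6.07 in knockout hearts, against 6.45, 5.63 and 5.91 in wild-type hearts. Of 10 fibroblast and preadipocyte markers 9 were lower and 1 higher in knockout hearts, where 52.1% of all probes were lower. With 0 called, their median of -0.17 was the lowest among the 14 other lists. Some lower ones lay near 0, as Dcn at -0.00050 and Pdgfra at -0.024, and 0 of the 10 had groups without overlap. The 10 markers had mean levels from 9.51 to 10.02 in knockout and from 9.56 to 10.01 in wild-type hearts. Knockout replicate 1 and wild-type replicate 2 were highest, and wild-type replicate 3 was the lowest of its group. In this list Dpp4, a marker of early preadipocytes, read 7.87, 7.61 and 7.39 in knockout hearts, against 8.36, 8.51 and 7.38 in wild-type hearts, with wild-type replicate 3 again low (difference -0.46, adjusted p = 0.608). The part of these cells in the adipocyte values was not tested. Mesothelial and epicardial markers, from the surface where epicardial fat lies, ranged from 6.93 to 7.53 in knockout and from 7.27 to 7.32 in wild-type hearts. Of 7 measured, 2 were higher and 5 lower, with 0 called and a median of -0.10. Among them Wt1 differed by -0.19 and Krt19 by -0.29, with adjusted p = 0.586 and 0.550. Upk1b, named after its values were seen, differed by 0.52 (adjusted p = 0.704).

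Skeletal muscle and liver also hold Car3. Of 12 skeletal muscle genes 8 were lower and 4 higher, with a median of -0.056 and list levels from 7.09 to 7.30 in knockout and from 7.04 to 7.25 in wild-type hearts. Myl1, a light chain of fast muscle, read 10.84, 9.94 and 10.08 in knockout hearts, against 8.29, 8.53 and 9.81 in wild-type hearts. Its groups did not overlap, and the difference of 1.41 (adjusted p = 0.391) passed at 1.88 once wild-type replicate 3 was left out (adjusted p = 0.0311). Mylpf, another fast light chain, differed by -0.21 (adjusted p = 0.543). Named after their values were seen, the slow muscle troponin genes Tnnt1 and Tnni1 differed by -0.11 and -0.059 (adjusted p = 0.776 and 0.902). The fast myosin genes Myh1 and Myh4 averaged below background in both groups, while 10 of the 12 genes had a mean above it in at least 1 group. Which cells gave the Myl1 signal was not tested. Liver genes had a median of -0.089 over 8 measured and levels from 6.12 to 6.34 in knockout and from 6.31 to 6.47 in wild-type hearts, around the background level. Ahsg, which encodes the plasma protein fetuin-A, differed by -0.66 without overlap (adjusted p = 0.391), and Fgb, a fibrinogen chain, by -0.33 (adjusted p = 0.516). The defining liver gene Alb lay below background in 5 of 6 hearts, with knockout replicate 3 at 6.45 above it. The part of muscle or liver RNA in the Car3 values was not tested.

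Cardiomyocyte markers had a median of 0.045 over 9 genes and levels from 13.41 to 13.58 in knockout and from 13.40 to 13.52 in wild-type hearts. Endothelial and macrophage medians were 0.075 and 0.038, and the endothelial list had levels from 10.59 to 10.68 in knockout and from 10.52 to 10.58 in wild-type hearts. Kdr, a receptor of vascular growth factor, differed by 0.43 (adjusted p = 0.391) and Emcn by -0.27 (adjusted p = 0.514). Macrophage levels ran from 9.36 to 10.12 in knockout and from 9.36 to 9.86 in wild-type hearts, with knockout replicate 1 highest. Of 8 macrophage genes 4 were higher and 4 lower, with 0 called. Cd163 differed by 0.21 and Cd68 by 0.26, and Cd68 turned to -0.029 without knockout replicate 1.

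The erythroid markers were higher in knockout hearts, and among wild-type hearts their order was the reverse of that of the adipocyte mean. Of 6 listed, 2 were measured. Alas2, the heme synthesis enzyme of red cell precursors, read 10.55, 10.24 and 10.22 in knockout hearts, against 9.02, 9.42 and 9.94 in wild-type hearts, and Slc4a1, the anion exchanger of red cells, read 8.36, 8.24 and 8.31 in knockout hearts, against 7.61, 7.77 and 7.90 in wild-type hearts. Both had groups without overlap, where 7.33% of all probes lay higher without overlap, and wild-type replicate 3 was again the wild-type heart nearest the knockout hearts. Their differences were 0.88 and 0.54 (adjusted p = 0.368 and 0.263), and both passed with wild-type replicate 3 left out, at 1.12 and 0.62 (adjusted p = 0.0355 and 0.0494). Their part in the adipocyte values was not tested.

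The genes most like the 9 were sought by the mean absolute distance, over the 6 hearts, between a gene's centred values and the mean deviation of the 9. That mean follows Car3 more than any other gene, since Car3 deviates most. Ciart, a repressor of the circadian clock, was nearest at 0.056. It read 9.09, 8.99 and 8.92 in knockout hearts, against 9.96, 9.74 and 9.29 in wild-type hearts, a difference of -0.67 (adjusted p = 0.368), and its other probe gave -0.74. Fabp5 was next at 0.083. Tmem255a, Tyw5, Ddit4, Lcmt1, Wfdc1 and Sema5a followed at 0.093 to 0.10, with differences from -0.64 to -0.41. Ddit4 encodes a stress-induced inhibitor of mTOR, Lcmt1 a methyltransferase of the phosphatase PP2A and Sema5a a semaphorin. These 8 were chosen by their values in the hearts, so their differences and order of hearts are a description. Among the 9 genes themselves Scd1 lay nearest this mean, at 0.12, and Car3 farthest, at 0.85.

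**Figure D5:**
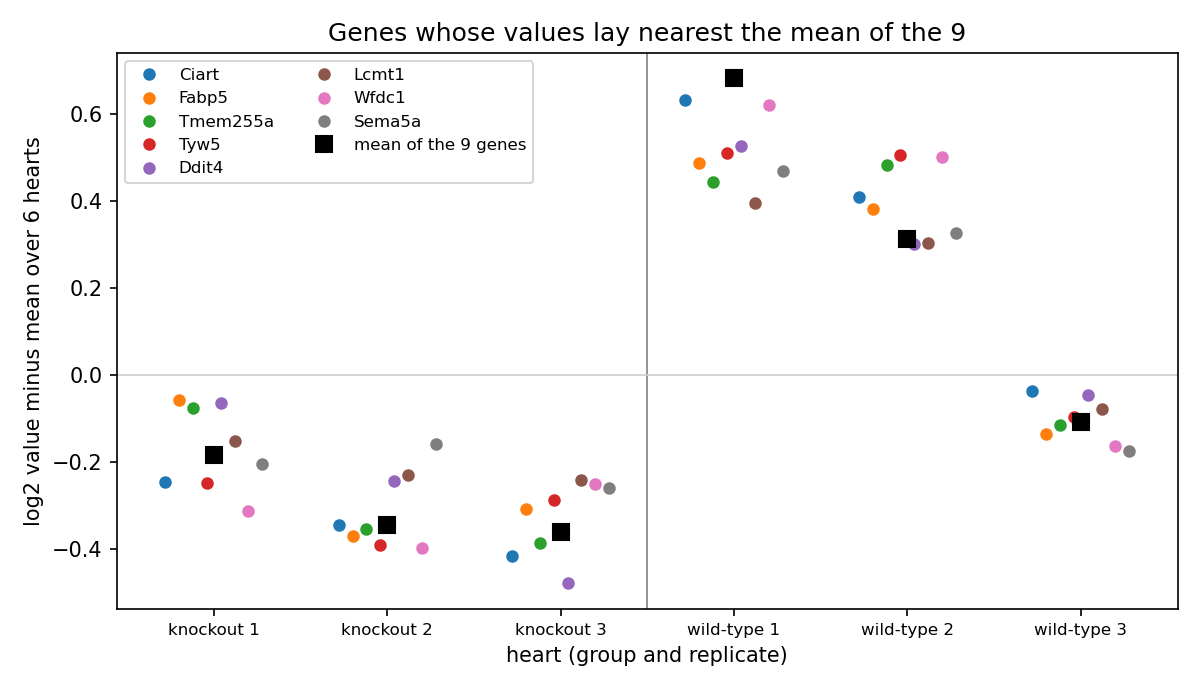
Log2 value minus a gene's own mean over 6 hearts (vertical axis) for the 8 nearest genes (coloured points, spread sideways for clarity) and for the mean of the 9 adipocyte genes (black squares), by heart. The black squares run from -0.36 in knockout replicate 3 to 0.68 in wild-type replicate 1, and wild-type replicate 3 lies at -0.11.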

How the data were processed

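Per the labels' protocols, heart RNA was taken up in Trizol, cleaned on RNeasy columns and biotinylated. The deposited values are log2 signals. The submitters' processing notes name RMA and Partek 6.6, without settings, probe annotation or genome build. Array medians lay between 6.92 and 6.97 over 35556 probes, so nothing more was normalized and no probe of a single gene was left out for low signal. The labels give all arrays 1 shared date, so no batch was fitted.

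Of the probes 21789 had exactly 1 gene symbol, 1621 several, and 12146 were unnamed here. The Entrez IDs of the 21789 were matched to RefSeq genes of GRCm38.p6 (21698 found, 0 symbols updated). Each gene stood for its probe of highest mean. Between 13 and 19 named neighbours in probe order, 10 probes a side, shared the chromosome of each of the 9 probes, and at most 1 did not. The background level is the value that 95% of the 1207 olfactory and vomeronasal receptor probes stay under by their mean over hearts, and 71.2% of the 21789 lay above it.

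The fit used lmFit and eBayes of limma 3.58.1 in R 4.3.3. The script was tested on simulated data with known changes. The 9 genes and the 14 other lists were chosen with earlier results of these data known. Named were the 9, Cenpf, 13 genes set by name, the 2 smallest p above background of each list (4 in the lists of other adipocyte genes and of lipid synthesis) and the 8 nearest genes, passing over predicted, receptor and small RNA genes. Figures were drawn with matplotlib 3.10.9.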

Additional observations from a re-analysis of the deposited data

How the results depend on the processing

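The 9 genes had 141 alternative fits in all, of which 137 kept direction and side of the threshold, 2 passed it (Car3 and Adipoq without wild-type replicate 3) and 2 reversed, both Fabp4. The count of the 9 called ranged from 0 to 2 with 1 heart left out, and that of genes in the other lists from 0 to 10. The median difference of the 9 kept its sign and moved by less than the spread between hearts under every alternative run. Adipoq and Lep gave no value with only probes above the background level, and Lep none with probes above the 25th percentile. The count of all probes called, 6 as reported, was 1 with all probes of the table tested, 22 with a trend and robust variance, 33 with array weights and 11 with the replicate block, and ranged from 1 to 293 with 1 heart left out. Cenpf stayed at -2.07 but did not pass with all probes tested (adjusted p = 0.281), and ranged from -2.27 to -1.92 with 1 heart left out. The cause was not tested.

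Over all probes the replicate numbers showed no pairing of the hearts. Deviations of same-numbered hearts correlated across probes at -0.11, -0.16 and -0.0031, and no heart correlated best with its own number. Car3 and Retn nevertheless fell from replicate 1 to replicate 3 in both groups. For these 2 genes the replicate block lowered the SE, from 0.53 to 0.28 for Car3 and from 0.33 to 0.18 for Retn. The replicate block left Car3 at -2.29 with an adjusted p of 0.0658 and changed no call among the genes named in the report. Near-zero differences changed sign with 1 heart left out. Fabp4 ranged from -0.090 to 0.021, Pck2 from -0.046 to 0.058, Agt from -0.13 to 0.076, Cdh13 from -0.038 to 0.15, Plin4 from -0.0089 to 0.25, Adipor1 from -0.013 to 0.056, Cebpa from -0.21 to 0.080, Pparg from -0.035 to 0.18, Ucp1 from -0.29 to 0.12 and Cd68 from -0.029 to 0.48. Pck2, at 0.0012 as reported, was -0.0081 with array medians subtracted, -0.00020 with quantile normalization, -0.0084 with cyclic loess and -0.019 with array weights, with which Agt was 0.058. Signals near background limit Adipoq, Lep and Pck1.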
